A study of Mus musculus with 16 samples.

Results

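Developmental transcription factor genes of the Hox, Msx, Nkx, Lhx, Meis, Pax, Pou, Sox, Fox, Gata and Tbx families were read out of an array study of azacytidine in mouse NIH3T3 cells. Members were chosen by a rule on names, as every gene whose probe carried a single symbol beginning with a family name and a number. For Hox and Fox a letter stands before the number, and for Nkx the family name was enough. The rule took 72 of 20355 probes, which stand for 59 genes out of 9930 named genes on the array. It found 19 Fox, 10 Hox, 8 Sox, 5 Pou, 4 Gata, 4 Pax, 3 Tbx, 2 Meis, 2 Nkx, 1 Lhx and 1 Msx gene, and its patterns for the Dlx and sine oculis homeobox families matched 0 probes. After the filter on missing values 45 of the 59 genes could be compared.

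NIH3T3 is an established mouse fibroblast line. Azacytidine is a cytosine analogue that cells build into nucleic acids, where it traps DNA methyltransferases, so that methylation is lost as cells divide. Erbb2 is a receptor tyrosine kinase that acts as an oncogene when overexpressed. On each of the 16 two-colour cDNA arrays, treated cells in one channel were compared with untreated cells of their own line in the other, so the untreated cells of the Erbb2 arrays carried the transfected Erbb2 too. Erbb2-transfected NIH3T3 cells were treated at 10 µM (8 arrays) or at 5 µM (4 arrays), and NIH3T3 cells without the transfection at 10 µM (4 arrays). By the labels of the first channel, the dyes were exchanged on 50% of the arrays of each group. On the untransfected arrays the labels name the same dye for both channels, so the exchange is not certain there. The labels do not give the time of treatment, the promoter that drives Erbb2, or whether the transfected cells were a single clone. Nor do they say if separate cultures lie behind the arrays of a group. The p-values therefore measure the spread between arrays, which may be technical.

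Factors of these families bind DNA and set the fate and position of cells in the embryo. Hox genes lie in clusters and give cells their place along the body axis, often together with Pbx and Meis partners, and respond to retinoic acid. Sox, Pax, Pou, Gata, Fox and T-box factors direct lineages such as cartilage, nerve, blood and gut, and in cells of another lineage many of them are held silent by Polycomb complexes, by DNA methylation of their control regions, or by both.

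Promoter sequences are shown for 4 genes on which the results turn: Hoxb1, which passed the test in every group; Hoxd4, a Hox gene whose fitted values lay close to 0 in the Erbb2 cells; Msx1, which had a single sign at 5 µM and in untransfected cells; and Foxp3, which had the highest fitted value of the members at 10 µM in Erbb2 cells. Each runs from 250 bases before to 50 bases from the start of the gene on, in the direction of the gene, from RefSeq on GRCm38.p6, with each CG dinucleotide, the site of DNA methylation in mammals, in capitals. The windows are Hoxb1 at chr11:96365508-96365807 on the + strand, Hoxd4 at chr2:74721728-74722027 on the + strand, Msx1 at chr5:37824536-37824835 on the - strand, and Foxp3 at chrX:7580233-7580532 on the + strand. Foxp3 has a further start, whose window at chrX:7579426-7579725 holds 6 CG dinucleotides, and the window richer in them is shown.
Hoxb1: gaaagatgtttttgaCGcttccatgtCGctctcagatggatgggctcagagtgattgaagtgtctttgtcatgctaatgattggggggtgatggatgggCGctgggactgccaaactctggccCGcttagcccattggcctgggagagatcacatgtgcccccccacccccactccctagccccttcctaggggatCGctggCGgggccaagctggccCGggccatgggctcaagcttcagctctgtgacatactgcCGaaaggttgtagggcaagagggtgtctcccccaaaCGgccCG
Hoxd4: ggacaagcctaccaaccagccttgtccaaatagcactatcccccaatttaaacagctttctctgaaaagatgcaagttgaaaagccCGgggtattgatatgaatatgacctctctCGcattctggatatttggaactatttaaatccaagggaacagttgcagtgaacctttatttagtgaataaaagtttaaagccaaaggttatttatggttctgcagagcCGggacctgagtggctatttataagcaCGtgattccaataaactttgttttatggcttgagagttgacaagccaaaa
Msx1: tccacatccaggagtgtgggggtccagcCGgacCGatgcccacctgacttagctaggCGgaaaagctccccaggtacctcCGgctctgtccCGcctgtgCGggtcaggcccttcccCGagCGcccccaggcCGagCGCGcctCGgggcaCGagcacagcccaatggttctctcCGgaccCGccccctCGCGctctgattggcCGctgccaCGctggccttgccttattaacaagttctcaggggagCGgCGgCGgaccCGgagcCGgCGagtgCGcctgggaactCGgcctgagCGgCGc
Foxp3: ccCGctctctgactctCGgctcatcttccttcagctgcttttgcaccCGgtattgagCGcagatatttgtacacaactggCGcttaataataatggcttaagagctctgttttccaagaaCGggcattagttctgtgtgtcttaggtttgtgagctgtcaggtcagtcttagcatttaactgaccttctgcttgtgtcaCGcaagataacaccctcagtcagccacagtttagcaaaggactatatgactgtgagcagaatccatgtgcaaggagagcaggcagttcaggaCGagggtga
The Hoxb1 window holds 10 CG dinucleotides and 59.3% G or C, that of Hoxd4 holds 4 and 39.7%, that of Msx1 holds 29 and 70%, and that of Foxp3 holds 8 and 47.7%. Methylation was not measured in this study, so the windows describe the genes and not their state in the cells.

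Each value is a log2 ratio, above 0 where treated cells had more of the RNA than untreated cells, and ± gives the limma standard error of a fitted value. Which dye is the numerator was not stated, so every direction is the likely one, from reading the deposited ratio as Cy5 over Cy3 and turning the sign of arrays with the treated RNA in Cy3. For the untransfected cells the labels name the same dye for both channels, and the dye of the first channel was used, so the sign of that whole group is in further doubt. Spot brightness was not used here, so a ratio does not tell whether a gene was expressed above background in these fibroblasts, and fewer cells and less RNA per cell cannot be told apart. An array gave 16153 to 18507 ratios with an interquartile range of 0.71 to 1.36, and the widest were 3, 5 and 6 among the 10 µM Erbb2 arrays. The 45 members had a median between -0.11 and 0.21 on each array and an interquartile range between 0.49 and 1.42. Among the fibroblast markers measured as ratios (9 of 13 on the list), 0 passed in the Erbb2 groups, beside 1.26% and 0.209% of all features. In untransfected cells Fn1, Col1a2 and Vim passed as lower, at -1.63 ± 0.20, -0.79 ± 0.19 and -0.55 ± 0.14, beside 2.73% of all features. The 9 markers ran there from -1.63 to 0.67.

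Hoxb1, which patterns the hindbrain and is a direct target of retinoic acid signalling (Entrez Gene 15407), was the member past the threshold in each of the 3 groups. In Erbb2 cells at 10 µM it read 1.16, 1.02, 1.53 and 1.22 on the 4 arrays whose treated RNA carried Cy5 (the Cy5 arrays), and 1.22, 0.91, 1.16 and 1.23 on the 4 where it carried Cy3. All 8 arrays were above 0, and the ranges of the dye arrangements overlapped, with means of 1.23 and 1.13. At 5 µM Hoxb1 read 0.60 and 0.79 on the Cy5 arrays and 0.96 and 1.15 on the Cy3 arrays. In untransfected cells the Cy5 arrays read -0.56 and -0.61 and the Cy3 arrays -0.55 and -0.96. With the signs as turned here, the values of the untransfected arrays were all below 0 and did not overlap those of either Erbb2 group. Read in the other dye, the untransfected values would be above 0 and overlap the ranges of both Erbb2 groups. The highest 5 µM values lay within the range of the 10 µM arrays.

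**Figure D1:**
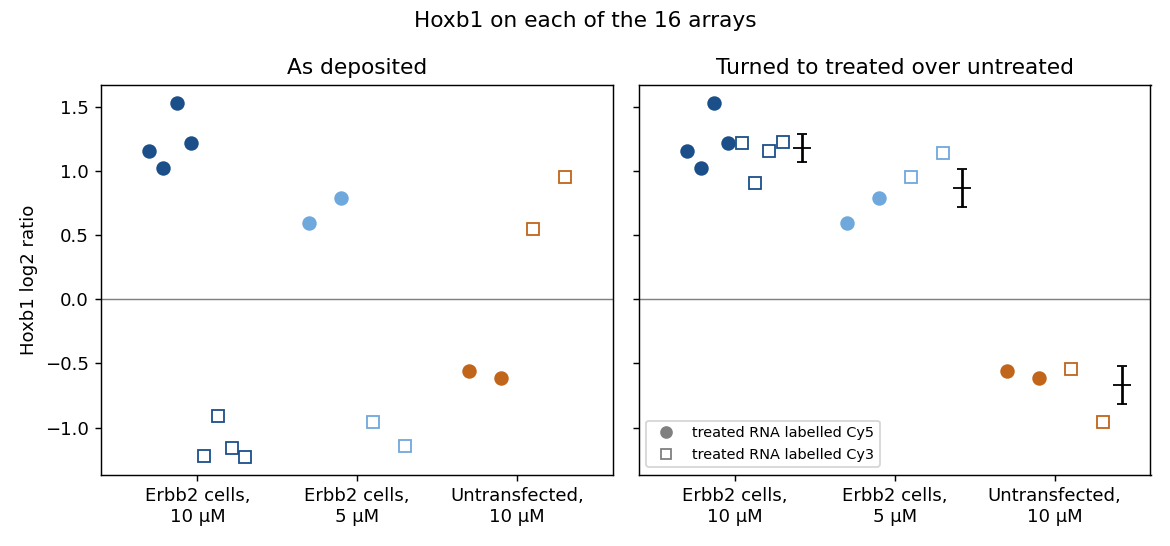
Hoxb1 on each of the 16 arrays, with the log2 ratio on the vertical axis and the 3 groups along the horizontal axis; filled circles have the treated RNA in Cy5 and open squares in Cy3. The left panel shows the deposited sign, where the dye arrangements mirror each other, and the right panel the sign turned to treated over untreated, with the fitted value and its standard error as bars at 1.18, 0.87 and -0.67.

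The fitted rise of Hoxb1 at 10 µM in Erbb2 cells was 1.18 ± 0.11, or 2.27-fold (95% interval 0.95 to 1.41, n = 8, limma adjusted p = 2.77e-05). At 5 µM it was 0.87 ± 0.15, or 1.83-fold (0.55 to 1.20, n = 4, limma adjusted p = 0.0412). In untransfected cells it was -0.67 ± 0.15, or 1.59-fold lower (-0.99 to -0.34, n = 4, limma adjusted p = 0.0266). By its unadjusted p Hoxb1 ranked 10th of 12420 features in the 10 µM Erbb2 group, 14th in the 5 µM group and 267th in untransfected cells. Its dye term, the part of the ratio that stays with the dye, was 0.00, but 1 such term was fitted for all 3 groups. The means of the Cy5 and Cy3 arrays were 1.23 and 1.13 at 10 µM and 0.70 and 1.05 at 5 µM. In untransfected cells they were -0.59 and -0.75. At 5 µM the values of the dye arrangements did not overlap. The call at 10 µM held without any single array of the 8, with 1.13 to 1.22, and without arrays 3, 5 and 6 together, at 1.16. The calls in the groups of 4 did not. Without array 1, 2, 3 or 4 the limma adjusted p was 0.14, 0.184, 0.252 or 0.247 at 5 µM, and 0.0766, 0.0891, 0.0642 or 0.164 in untransfected cells, while the values stayed between 0.77 and 0.97 and between -0.71 and -0.57. Fitted on the arrays of its own group alone, Hoxb1 had limma adjusted p-values of 0.0122, 0.70 and 0.273 in the groups as ordered above.

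The sign of Hoxb1 rests on the reading of the dyes. As deposited, it was above 0 on every Cy5 array of Erbb2 cells and below 0 on every Cy3 array, and the reverse held for the 4 untransfected arrays. With no array turned, the fitted values were 0.05, -0.18 and 0.08, with limma adjusted p-values of 0.971, 1 and 1, and these apply if the ratios were deposited as treated over untreated already. With the untransfected arrays alone read the other way, Hoxb1 had 0.67 in that group (limma adjusted p = 0.0264), the same sign as in Erbb2 cells.

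Over the members the test called 1 of 45, or 2.22%, in Erbb2 cells at 10 µM, beside 1.26% of all 12420 features. At 5 µM it called 1 of 45 beside 0.209%, and in untransfected cells 1 of 45 beside 2.73%. Unadjusted p-values under 0.05 were found for 5, 5 and 3 of the 45 members, beside 10.8%, 6.33% and 11.5% of all features. A single gene in each group is too few to set against those shares. The members' fitted values had a median of 0.12, 0.01 and -0.08 in the 3 groups, beside 0.00, -0.02 and 0.03 over all features. Single arrays moved these medians: they were 0.03 without array 7 of the 10 µM Erbb2 group, 0.14 without array 4 at 5 µM and 0.03 without array 4 of the untransfected cells. The median size of a fitted value, whatever its sign, was 0.22, 0.30 and 0.20 for the members, beside 0.22, 0.22 and 0.26 over all features.

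**Figure D2:**
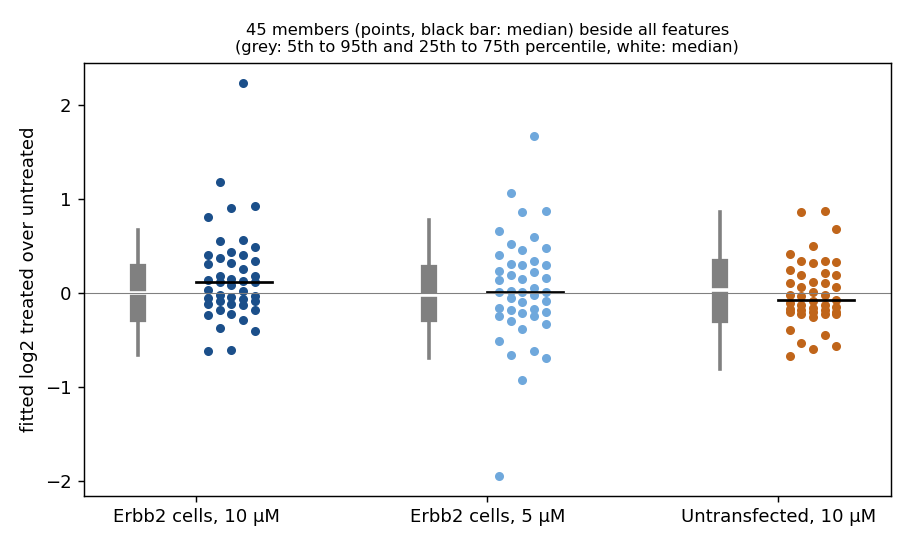
Fitted log2 values of the 45 members, 1 point each, in the 3 groups, with a black bar at their median, beside the range of all 12420 features in grey (thin bar 5th to 95th percentile, thick bar 25th to 75th, white line median). The members' medians of 0.12, 0.01 and -0.08 lie near those of all features.

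The precision set what could be seen. The standard error of a member ran from 0.11 to 0.65 at 10 µM in Erbb2 cells, from 0.15 to 0.95 at 5 µM and from 0.15 to 0.93 in untransfected cells. The 95% interval lay within 1 log2 unit of 0, a 2-fold change either way, for 28, 16 and 21 of the 45 members, beside 63.5%, 47.6% and 42.7% of all features. For the other members the interval reached past a 2-fold change. Of 687 member values, 39 lay beyond 2 log2 units, and 15 of these came from the 3 wide arrays of the 10 µM Erbb2 group, against 11 from the other 5 arrays of that group.

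**Figure D3:**
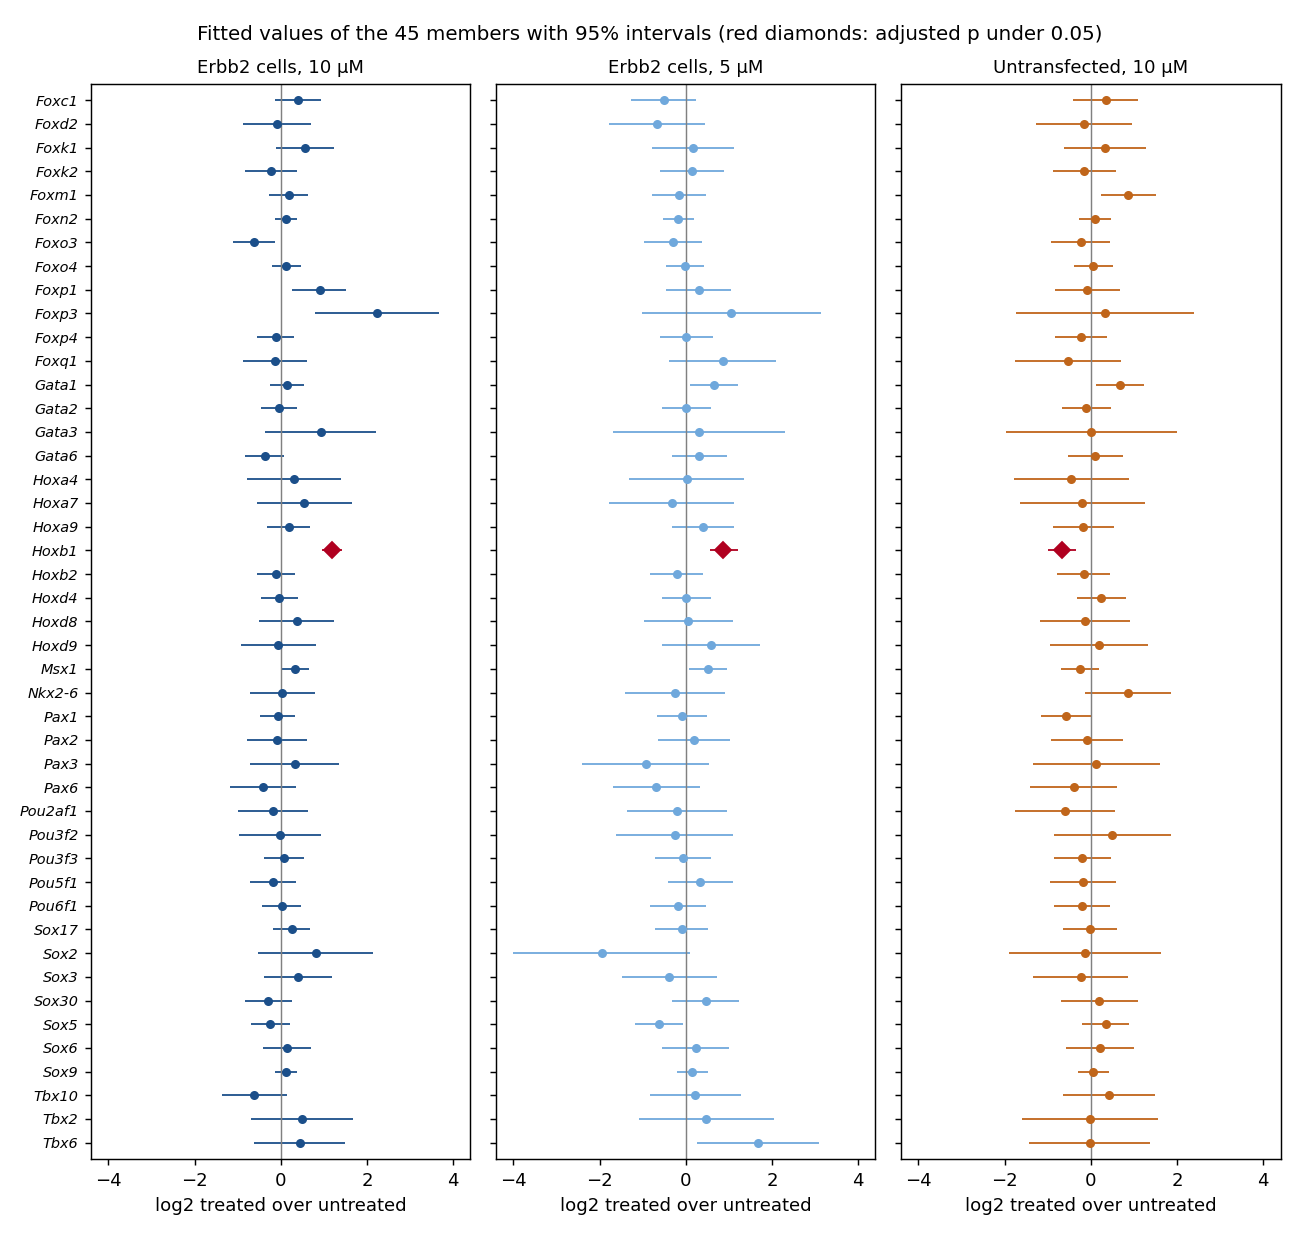
Fitted log2 values of the 45 members with 95% intervals on the horizontal axis, 1 row per gene and 1 panel per group. Hoxb1 (red diamond, adjusted p under 0.05) stands off 0 in all 3 panels, at 1.18, 0.87 and -0.67, and most other intervals cross 0.

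Of the other Hox genes 7 were compared and 0 passed in any group, with 0 at an unadjusted p under 0.05 too (limma). Of all features 1.26%, 0.209% and 2.73% passed in the 3 groups, and 10.8%, 6.33% and 11.5% had an unadjusted p under 0.05. So few genes cannot be set against those shares. Hoxb2, a neighbour of Hoxb1 in the Hoxb cluster and also a hindbrain gene, read -0.32, 0.19, 0.38, -0.61, 0.04, 0.18, 0.15 and -0.96 on the 8 arrays of Erbb2 cells at 10 µM. Its arrays fell on both sides of 0, with a fitted value of -0.12 ± 0.20 (-0.55 to 0.32). At 5 µM Hoxb2 had 0.30, 0.26, -1.63 and 0.24, and in untransfected cells -0.25, 0.05, -0.32 and -0.14. Hoxd4, which patterns the neck region of the spine and the hindbrain, was fitted at -0.03 ± 0.20 and 0.01 ± 0.26 in Erbb2 cells and at 0.24 ± 0.26 in untransfected cells. The intervals of Hoxb2 at 10 µM (-0.55 to 0.32) and of Hoxd4 (-0.46 to 0.40) both lay below that of Hoxb1.

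Single high arrays stood out for 3 Hox genes. Hoxa7, a gene of the trunk, had 4.50 on array 3 of Erbb2 cells at 10 µM and -0.75 to 0.65 on the other 6 arrays with a value. Hoxa4 likewise had 3.56 on array 5 and lay between -1.81 and 0.66 on the other 5. Hoxd8 had 3.14 on array 8 and between -0.96 and 0.32 on the other 5. Their fitted values of 0.55 ± 0.51, 0.31 ± 0.50 and 0.37 ± 0.40 thus each held 1 array far above the rest. Hoxa9, a posterior gene known for its part in leukaemia, was fitted at 0.18 ± 0.24, 0.40 ± 0.34 and -0.18 ± 0.34 in the 3 groups, and Hoxd9, a posterior gene of the limb, at -0.06 ± 0.40, 0.59 ± 0.53 and 0.19 ± 0.53.

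Msx1, a homeobox repressor that keeps limb and facial mesenchyme undifferentiated, was above 0 on every array of Erbb2 cells at 5 µM and below 0 on every untransfected array. It read 0.47, 0.46, 0.55 and 0.58 at 5 µM and -0.17, -0.19, -0.34 and -0.32 in untransfected cells. At 10 µM in Erbb2 cells it ran from -0.05 through a median of 0.21 to 1.38, which overlaps the 5 µM values and not the untransfected ones. Read in the other dye, the untransfected values would lie within this 10 µM range, with Msx1 fitted there at 0.26. None of the fitted values, 0.34 ± 0.14, 0.52 ± 0.20 and -0.26 ± 0.20, passed, with limma adjusted p-values of 0.39, 0.624 and 0.814. Nkx2-6, a cardiac and pharyngeal homeobox gene, had 0.86 ± 0.46 in untransfected cells with 2.93 on a single array, and 0.03 ± 0.35 and -0.25 ± 0.54 in the Erbb2 groups.

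Paired box and POU factors gave no call in any group, beside 1.26%, 0.209% and 2.73% of all features. So few genes cannot be set against those shares. Pax3, a factor of muscle precursors and neural crest, was below 0 on every 5 µM array at -0.76, -1.22, -0.40 and -1.36. At 10 µM it ran from -2.95 through a median of 0.07 to 2.70, so the sign at 5 µM was not seen at 10 µM. Its fitted values were 0.32 ± 0.49, -0.93 ± 0.69 and 0.12 ± 0.69. Pax1, of the developing spine, had -0.57 ± 0.27 in untransfected cells (-0.52, 0.34, -0.68 and -1.43) and -0.07 ± 0.19 and -0.09 ± 0.27 in Erbb2 cells. Pax6, the eye and forebrain factor, and Pax2, of kidney and ear, had fitted values between -0.69 and 0.19. The pluripotency factor Pou5f1 (Oct4) was fitted at -0.18 ± 0.25, 0.34 ± 0.35 and -0.18 ± 0.35, and its 5 µM value held 2.30 on array 3 against -0.56 to -0.04 on the others. Pou3f2 and Pou6f1, both neural POU factors, were below 0 on every 5 µM array, fitted at -0.25 ± 0.63 and -0.18 ± 0.30. Pou3f3, also neural, lay between -0.20 and 0.08. Pou2af1, which the name rule takes in, is a B cell coactivator that binds POU factors and not a POU factor itself, and was below 0 on all 4 untransfected arrays (-0.60 ± 0.54, limma adjusted p = 0.872).

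Sox factors also gave no call, beside 1.26%, 0.209% and 2.73% of all features, shares that so few genes cannot be set against. Sox9, the master factor of cartilage, was the most tightly measured, at 0.12 ± 0.12, 0.15 ± 0.17 and 0.06 ± 0.17, with every interval within -0.29 and 0.51. Its 2 probes differed at 10 µM in Erbb2 cells. One was above 0 on all 8 arrays (0.27, 0.82, 0.41, 0.13, 0.79, 0.78, 0.13 and 0.07) and, fitted alone, had 0.42 ± 0.13 with a limma adjusted p of 0.182. The other ran from -0.84 to 0.11, fitted at -0.19 ± 0.15. Sox5, a partner of Sox9 in cartilage, had -0.62 ± 0.25 at 5 µM and 0.34 ± 0.25 in untransfected cells (limma adjusted p = 0.691 and 0.788). The fitted values of Sox6, the other partner, lay between 0.14 and 0.23 in all groups. At 10 µM in Erbb2 cells its arrays ran from -0.71 through a median of -0.15 to 2.07 on array 3.

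Sox2, a pluripotency and neural factor, had single arrays far from the rest. On its kept probe it read -0.89, 0.36 and -5.16 on the 5 µM arrays 1, 2 and 4, and -1.71 to 3.28 on 7 arrays at 10 µM. Its second probe, left out for missing values, read -0.15 on array 4 at 5 µM and -4.90 on array 3, where the kept probe had no value. The probes therefore did not give the low value on the same array. Sox3, a close relative of Sox2, likewise had 3.71 on array 3 at 10 µM and -0.70 to 0.88 on the other 7. Its second probe, with values on 9 arrays, was below 0 on all 4 of the 10 µM arrays it was read on (-1.79 to -0.72) and above 0 on its 3 arrays at 5 µM (1.66 to 4.06), a pattern its kept probe, at -0.70 to 3.71 and -0.95 to 0.10, did not show. Sox17, of endoderm and vessels, and Sox30, of the testis, lay between -0.29 and 0.46.

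Forkhead genes gave the highest fitted value of the members and no call. Of all features 1.26%, 0.209% and 2.73% passed in the 3 groups, shares that so few forkhead genes cannot be set against. Foxp3, the lineage factor of regulatory T cells, had a value on 6 of the 8 arrays of Erbb2 cells at 10 µM, reading 4.78, 0.12, 3.06, 0.04, 2.11 and 3.32. All were above 0, but 2 were close to it. The fitted value was 2.24 ± 0.65 (0.80 to 3.68, limma adjusted p = 0.208), and Foxp3 had 1.06 ± 0.93 at 5 µM and 0.33 ± 0.93 in untransfected cells. Among the blood and immune markers (5 of 9 measured), Cd5 passed as higher in both Erbb2 groups, at 1.29 ± 0.10 and 1.35 ± 0.14, and Tyrobp as lower in untransfected cells, at -0.68 ± 0.16. The list's median was -0.10, 0.10 and 0.20 in the 3 groups, with lowest values of -0.59, -0.66 and -0.68. Its part in the Foxp3 values was not tested.

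Foxp1, a repressor of the same subfamily with roles in heart and B cells, was above 0 on all 6 arrays it was read on at 10 µM in Erbb2 cells (0.07, 0.39, 1.62, 2.94, 0.70 and 0.47). Its highest values came from arrays 5 and 6. It was fitted at 0.90 ± 0.29, 0.30 ± 0.35 and -0.08 ± 0.35 (limma adjusted p = 0.242, 1 and 0.998). Foxp4 lay between -0.22 and 0.01 as a mean of 2 probes that differed at 10 µM, fitted alone at -0.95 ± 0.40 and 0.70 ± 0.40. Foxm1, which drives genes of mitosis, was above 0 on all 4 untransfected arrays (0.49, 1.5, 0.41 and 1.07; fitted 0.87 ± 0.30, limma adjusted p = 0.195). In Erbb2 cells its arrays fell on both sides of 0, with 0.18 ± 0.21 and -0.16 ± 0.30.

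Foxo3 and Foxo4 act downstream of growth factor signalling, where Akt keeps them out of the nucleus. Foxo3 was below 0 on every array at 5 µM (-0.33, -0.27, -0.13 and -0.46) and in untransfected cells (-0.30, -0.09, -0.13 and -0.42). At 10 µM in Erbb2 cells it read -0.12, 0.03, 0.07, -0.57, -2.31, -1.43, 0.39 and -1.03, with the lowest values on arrays 5 and 6. The fitted values were -0.62 ± 0.23, -0.30 ± 0.32 and -0.23 ± 0.32 (limma adjusted p = 0.306, 1 and 0.97). Its 2 kept probes had 0.12 ± 0.55 and -0.58 ± 0.35 in untransfected cells, so the mean of the probes was below 0 on each array although 1 probe was fitted above 0. A further probe, left out for missing values, ran from -0.34 to 3.58 in untransfected cells, and with it, under the loose filter, Foxo3 was fitted there at 0.23. The kept probe of Foxo4 was fitted close to 0 in all groups (0.13 ± 0.16, -0.02 ± 0.21 and 0.06 ± 0.21). A second Foxo4 probe, left out for missing values, had medians of -1.44, 0.09 and -0.40. Foxn2 was also fitted close to 0 (0.12 ± 0.12, -0.17 ± 0.17 and 0.10 ± 0.17). Foxc1, a mesenchyme and eye factor, read 0.65, 0.43, 0.11 and 0.17 in untransfected cells, fitted at 0.34 ± 0.35. The fitted values of Foxd2, Foxk1, Foxk2 and Foxq1 lay between -0.66 and 0.86, with 3.70 on array 5 behind the 0.56 ± 0.31 of Foxk1 at 10 µM.

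Gata and T-box factors gave no call, beside 1.26%, 0.209% and 2.73% of all features, shares that so few genes cannot be set against. Gata1, the erythroid factor, read 0.57, 1.04, 0.32 and 0.70 at 5 µM, fitted at 0.66 ± 0.26 (limma adjusted p = 0.644). It had 0.15 ± 0.19 at 10 µM, and 0.68 ± 0.26 in untransfected cells with 2.16 on array 2 and -0.01 to 0.36 on the others. Gata6, of heart and endoderm, was above 0 on all 4 arrays at 5 µM (0.31 ± 0.30) and had -0.37 ± 0.21 at 10 µM. The kept probe of Gata2, of blood stem cells, was fitted between -0.11 and 0.01. A second Gata2 probe, left out for missing values, read -1.89 and -1.68 on 2 untransfected arrays, with medians of 0.12 and -0.55 in the Erbb2 groups. Gata3, of T cells and breast epithelium, lay between 0.01 and 0.93 with a standard error of at least 0.59. Tbx6, of the mesoderm that forms somites, had 0.04, -0.09, 3.86 and 2.90 at 5 µM, where the high pair were the Cy3 arrays. Its fitted value of 1.67 ± 0.65 had a limma adjusted p of 0.626. Tbx2, a heart and limb repressor, was above 0 on all 4 arrays at 5 µM (0.48, 0.45, 0.18 and 0.80) and ran from -2.56 to 4.3 at 10 µM. Tbx10 was above 0 on all 4 untransfected arrays (0.41 ± 0.50) and reached -3.02 on array 5 of Erbb2 cells at 10 µM.

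**Figure D4:**
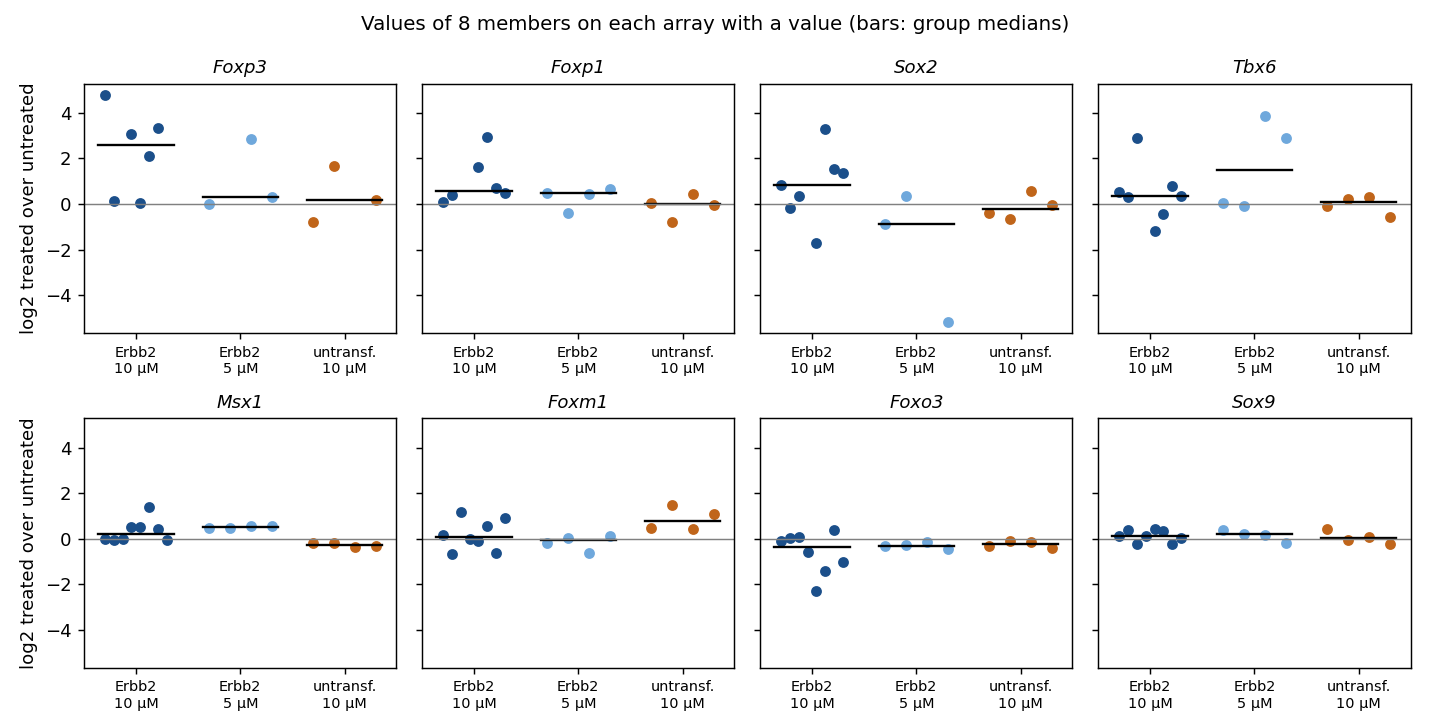
Log2 treated over untreated of 8 members on each array with a value, by group, with a bar at the group median. Foxp3, Sox2 and Tbx6 spread over several log2 units, Msx1 at 5 µM lies between 0.46 and 0.58, and Sox9 stays near 0.

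The same sign on every array with a value was found for 3 of 45 members at 10 µM in Erbb2 cells (Hoxb1, Foxp1 and Foxp3), beside 3.35% of all features. It was found for 10 at 5 µM beside 18.5%, and for 8 in untransfected cells beside 25.5%. At 5 µM these were Hoxb1, Foxq1, Gata1, Msx1, Tbx2 and Gata6 above 0 and Pax3, Foxo3, Pou3f2 and Pou6f1 below 0. In untransfected cells Foxm1, Tbx10, Foxc1 and Sox6 were above 0 and Hoxb1, Pou2af1, Msx1 and Foxo3 below. Of these, Sox6 and Foxo3 were means of 2 kept probes. Alone, the Sox6 probes were above 0 on 3 and 2 of the 4 untransfected arrays. One Foxo3 probe was above 0 on 1 of 4 arrays at 5 µM and on 3 of 4 in untransfected cells.

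The doses were compared in Erbb2 cells as the 10 µM minus the 5 µM value. Of the 45 members 0 passed in limma, as did 0% of all features, with 1 member at an unadjusted p under 0.05 beside 4.34%. Hoxb1 was 0.31 ± 0.19 higher at 10 µM, with an interval of -0.09 to 0.71 and a limma adjusted p of 0.998, so a difference between the doses was not detectable and one of up to 0.71 was not outside the interval. Sox2 had the smallest p of the members (0.0302, limma adjusted p = 0.998), with a difference of 2.76 ± 1.13 that came to 0.60 without array 4 at 5 µM. Next by p were Foxc1 (0.92 ± 0.43), Gata6 (-0.69 ± 0.37) and Sox30 (-0.75 ± 0.44), all with a limma adjusted p of 0.998. The median difference over the members was 0.14, beside 0.01 over all features.

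The lines were compared at 10 µM as Erbb2-transfected minus untransfected cells. Hoxb1 differed by 1.85 ± 0.19, or 3.60-fold (1.45 to 2.25, limma adjusted p = 0.000125), and was the 1 member past the threshold, beside 0.797% of all features. Unadjusted p-values under 0.05 were found for 2 members, beside 9.72%. The Hoxb1 call held without any single array of the 12 (1.75 to 1.90). With the untransfected arrays read in the other dye the difference was 0.51 ± 0.19 with a limma adjusted p of 0.243, so the call rests on the dye labels of that group. Among the other members Msx1 had 0.60 ± 0.25 (unadjusted p = 0.0293, limma adjusted p = 0.433), Foxp1 0.97 ± 0.45, Foxm1 -0.69 ± 0.36 and Sox5 -0.57 ± 0.33. With the untransfected arrays read the other way these were 0.09, 0.87, 1.05 and 0.10, so Foxm1 and Sox5 changed sign. The members' median difference was 0.08, beside -0.03 over all features. Both contrasts and the first group test share the arrays of Erbb2 cells at 10 µM, so they are not independent.

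By Pearson's r over the turned arrays, the members most like Hoxb1 were Msx1 (r 0.55, Spearman's rho 0.42, 16 arrays), Pax1 (0.45 and 0.14, 16 arrays) and Foxp3 (0.44 and 0.40, 12 arrays). These coefficients hold the difference between the groups as well as the arrays within them. Within the 12 arrays of Erbb2 cells r was -0.42 for Msx1 and -0.06 for Pax1, and 0.34 over 9 arrays for Foxp3; within the 4 untransfected arrays it was 0.40 for Msx1 and 0.69 for Pax1. The order also rests on the sign of the untransfected group and on Pearson's r, by alternatives chosen after seeing the data. With that group read in the other dye r was -0.16 for Msx1, -0.23 for Pax1 and 0.51 for Foxp3, and Foxm1 came first at 0.58. By Spearman's rho with the signs as turned here, Foxp1 came first at 0.58.

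The 14 genes that were not compared were Foxa3, Foxd1, Foxh1, Foxi1, Foxj1, Foxn1, Foxo1, Hoxb7, Hoxc9, Lhx2, Meis2, Meis3, Nkx2-4 and Sox11. Their 18 probes had values on 8 to 13 of the 16 arrays, from -5.21 to 6.12. Hoxb7, the other Hoxb gene on the array, had 8 values, with medians of -0.78 over 4 arrays, 1.55 over 2 and 0.94 over 2 in the 3 groups. Both Meis genes, which encode partners of Hox proteins, fell among these, so among such partners only genes outside the rule were read.

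Other homeobox genes outside these families, 17 of 66 listed, gave 0 calls in any group, beside 1.26%, 0.209% and 2.73% of all features. Their medians were 0.00, -0.01 and -0.09, with fitted values from -0.73 to 0.43 at 10 µM in Erbb2 cells. Hox cofactors of the TALE class gave 0 calls over 7 of 9 genes (medians -0.14, -0.17 and 0.05), retinoid signalling genes 0 over 6 of 20 (-0.11, 0.00 and 0.26), lineage bHLH factors 0 over 15 of 36 (0.03, 0.04 and 0.02), and cartilage targets of Sox9 0 over 6 of 14 (0.05, -0.14 and 0.21). The Polycomb and trithorax genes that silence or keep open the Hox clusters had 1 call over 23 of 39, in untransfected cells, with list medians of -0.08, 0.03 and -0.09. It was Dpy30, a subunit of the H3K4 methyltransferase complexes, which rose there by 1.03 ± 0.24 with 3 of 4 arrays above 0 (limma adjusted p = 0.0341). Of the FoxO targets (7 of 19; medians 0.11, -0.02 and -0.26) Trib3, a stress-induced inhibitor of Akt, fell in untransfected cells at -1.84 ± 0.38 on 4 of 4 arrays (limma adjusted p = 0.0149). Of the DNA methylation machinery (7 of 15; medians -0.23, 0.06 and -0.11) Mbd2, a reader of methylated DNA, fell there at -1.12 ± 0.20 on 4 of 4 arrays (limma adjusted p = 0.00573). The signs of these 3 turn if the untransfected arrays are read in the other dye.

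Markers of other cell types were read the same way. Of the epithelial markers (7 of 10; medians 0.12, 0.29 and 0.83) Krt8 passed as higher in untransfected cells at 1.13 ± 0.27. The epithelial list ran there from -0.30 to 1.54. Of the skeletal muscle markers (4 of 7; medians -0.09, 0.08 and -0.17) Mylpf passed as lower there at -0.78 ± 0.15, and of the neural markers (2 of 6; medians -0.59, 0.02 and 0.46) 0 passed in limma. The fibroblast markers had medians of 0.05, 0.09 and -0.31. Of all features 1.26%, 0.209% and 2.73% passed in the 3 groups. The signs in untransfected cells turn if those arrays are read in the other dye. The part of any of these in the values of the members was not tested.

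Promoter windows were found for 41 of the 59 genes, 55 windows in all. The window richest in CG of a gene held a median of 20 CG dinucleotides over these 41 genes, from 3 in Sox5 to 59 in Foxk2, beside a median of 21 and a range from 0 to 65 over 8012 genes of the array. The members were thus spread over most of the range of the other genes. Of the 6 Hox genes with a window, 5 lay below these medians (Hoxa9 and Hoxd4 had 4, Hoxd8 had 6, Hoxa7 had 9 and Hoxb1 had 10), and Hoxd9 had 20. Over the 31 genes with both a window and a fitted value, Spearman's rho between CG count and fitted value was -0.11, -0.20 and -0.21 in the 3 groups, a description across genes, which are not independent replicates. Members with at least 20 CG dinucleotides (15 genes) had median fitted values of -0.04, 0.01 and -0.11, and those with fewer (16 genes) 0.11, 0.14 and -0.16.

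**Figure D5:**
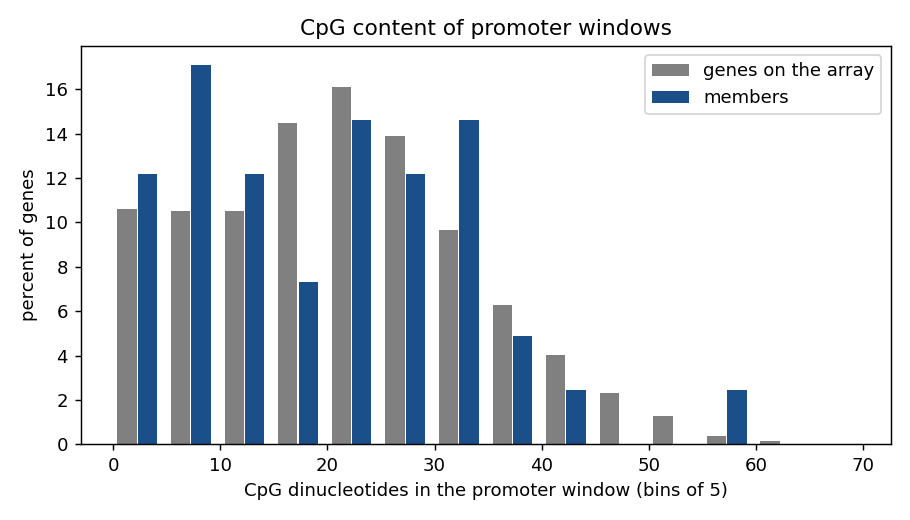
Share of genes, in percent, by the number of CG dinucleotides in the promoter window richest in them, in bins of 5, for 8012 genes of the array (grey) and 41 members (blue). The members spread over the range of the array's genes, with medians of 20 and 21.

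The pairing site of Hox and Pbx proteins, searched as TGATNNAT on both strands, was found in 3 of the 55 windows (5.45%), beside 8.85% of all 32851 windows of the same 300 bases. The Hoxb1 window holds it as TGATGGAT, starting 162 bases before the start of the gene, in the given strand. The windows of Tbx10 and Tbx6 hold it on the opposite strand, read in the given strand as ATTGATCA from 81 bases and ATCAATCA from 250 bases before the start. The letters are a description of these windows, and binding was not measured.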

How the data were processed

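RNA of treated and untreated cells was compared on 16 two-colour cDNA arrays, grouped by the titles in the labels. The label protocol speaks of organs and a pool of animals and was not used for grouping. The values the authors deposited are log ratios of the channels, read as log2; base, numerator, image analysis and normalization: not given in the sources used here. Repeated values above 15 (1755 of 325680 cells) were read as placeholders and set missing, beside 38737 cells without a value. In the member probes 10 of 1152 cells held the placeholder and 147 no value. Ratios were read as Cy5 over Cy3 and turned to treated over untreated. Array pairs with opposite dye labels had a mean r of 0.00388, -0.00267 and -0.0529 in the groups (10 µM, 5 µM, untransfected) and pairs with the same label 0.0257, 0.0516 and 0.109, so the clearest difference lies in the group with doubtful labels. Brightness over background is unknown.

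Probes needed values on 6 arrays of the 8 and 3 of each 4, with 1 of each dye arrangement (14813 of 20355), and were averaged by gene where they carried 1 symbol, which gave 12420 features. The platform annotation supplied the symbols (14030 probes with 1 symbol, 5 with several, 6320 with none), and all 59 members' Entrez IDs were found in RefSeq with 0 symbols changed. One linear model over all 16 arrays, with 3 group terms and a dye term, was fitted with limma 3.58.1 (lmFit and eBayes) in R 4.3.3 with version 1.17.8 of the data.table package. All 12420 two-sided p-values of a comparison were adjusted by Benjamini-Hochberg, with 0.05 as the threshold. Promoter windows were counted, searched and correlated with fitted values in Python with the pandas package, and figures were drawn with matplotlib. The procedure was tested on simulated data.

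The members and gene lists were chosen with earlier results of these data known. Genes were named where they passed, where they were among the 10 highest or 10 lowest of those with one sign on every array of a group, or among the 5 smallest p-values in a contrast, with up to 4 genes past the threshold per list and the 3 members most like a member that passed in several groups. Other members were named to account for each, after their values were seen. Alternatives covered the reading of the dyes, the dye term, the samples fitted, the filters, placeholders, probe averaging, scaling, array weights, the replicate block and each array left out.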

Additional observations from a re-analysis of the deposited data

Results flagged for a closer look

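Hoxb1 in untransfected cells had an array apart from the others, array 4 at -0.96, where the nearest of the other 3 was -0.61 and the far end -0.55. The gap was 0.837 of the range over 4 arrays. Of 20 such tests over the members named, 1 gave this result, and chance gives about 1 in 20. Without that array Hoxb1 was -0.57, with a limma adjusted p of 0.164.

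Hoxb1 also differed between the lines at 10 µM, by 1.85 ± 0.19 (limma adjusted p = 0.000125), with all 8 arrays of Erbb2 cells above 0 and all 4 of untransfected cells below 0. With the untransfected arrays read in the other dye the difference was 0.51.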

How the results depend on the processing

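The number of arrays limits the precision, and signal over background is unknown. With no array turned for its dye the members called fell from 1, 1 and 1 in the groups and 1 in the line contrast to 0 in each, and Hoxb1 had -0.18 at 5 µM, 0.08 in untransfected cells and -0.03 in the line contrast; over all features 2, 0, 4 and 0 passed in place of 157, 26, 339 and 99. With the untransfected arrays read in the other dye Hoxb1 had 0.67 there and the line contrast called 0 members, with 348 features in all (72 higher, 276 lower) in place of 99 (77 higher, 22 lower). Fits on the arrays of the groups compared called 0 members at 5 µM and in untransfected cells (22, 0, 0 and 41 features in all). Hoxb1 had 0.87 ± 0.15 and -0.67 ± 0.16 in these 2 fits, and why its calls were lost was not tested. The loose filter called 0 of the 45 members tested at 5 µM, with 110, 5, 285 and 81 of 14615 features in all. Leaving out each array gave 1 to 1 members at 10 µM and in the line contrast and 0 to 0 at 5 µM, in untransfected cells and in the dose contrast, with 103 to 142, 5 to 6, 213 to 259, 0 and 60 to 105 features. Over all features the complete filter called 247, 73, 474 and 189, array weights 148, 118, 469 and 129, scaled arrays 134, 46, 440 and 140, single probes 177, 16, 443 and 146, and leaving out arrays 3, 5 and 6 called 57 at 10 µM and 75 in the line contrast. Under the complete filter 25 members could be tested. The dose contrast called 0 members under every alternative run.

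Arrays with the same replicate number shared only a number: their deviations correlated at -0.0965 to 0.145. With that number as a block the line contrast called 0 members in place of 1 and 0 features in place of 99, with Hoxb1 at 1.81 (limma adjusted p = 0.439), and the dose contrast called 0.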
